A study of Mus musculus with 6 samples.

Results

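The 10 genes described here are markers of the epicardium, the sheet of mesothelial cells that covers the heart: Wt1, Tbx18, Upk3b, Upk1b, Msln, Muc16, Lrrn4, Krt8, Krt18 and Krt19. They were taken by name, as the rows whose Ensembl identifiers carry these symbols in the GRCm38 mouse annotation, and all 10 were found among 52550 mouse genes. Hearts of mice at postnatal day 7 were compared in 2 groups of 3 biological replicates, named GR-cKO and control. In GR-cKO hearts the cardiomyocytes lack Nr3c1, which encodes the glucocorticoid receptor, per the series title. The labels name neither the Cre line, the deleted exon, the strain nor the genotype of the control animals, and nothing in them says whether the controls carry a Cre or a floxed allele. RNA came from homogenised whole hearts, so the surface layer was read together with muscle, vessels and connective tissue. In such bulk samples, fewer cells of a type and less RNA per cell cannot be told apart.

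The epicardium forms in the embryo from the proepicardium and keeps the features of a simple epithelium. Some of its cells lose these features, enter the muscle wall and become fibroblasts and mural cells, and the layer also releases growth signals for the muscle beneath. Its cells switch on the transcription factors Wt1 and Tbx18 early, and display mesothelial surface proteins such as mesothelin and uroplakins. Because the receptor was deleted in cardiomyocytes, the epicardial cells themselves were not the cells targeted.

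Nr3c1 was at 57.6, 49.2 and 56.2 CPM in GR-cKO replicates 1, 2 and 3, against 114, 131 and 99.7 CPM in control replicates 1, 2 and 3. CPM set a gene's reads against those of all tested genes in its library and were scaled by the trimmed mean of M-values. The groups did not overlap, and GR-cKO over control gave -1.08 on the log2 scale (SE 0.125, adjusted p = 0.00101 in edgeR). Reads at the 3′ end need not lie in the deleted exons, so they do not measure the deletion itself. The libraries held 18135540 to 20988286 reads in the GR-cKO group and 19209410 to 22999192 reads in the control group. At these depths a count of 0 allows a level of up to 0.131 to 0.168 CPM (3 reads, counting error only). Gm42418, a transcript that overlaps ribosomal RNA sequence, took 10.7% of the reads of GR-cKO replicate 3, against 5.38 to 7.54% in the other 5 libraries. Every pair of libraries differed by more than sampling noise, with a chi-square of at least 10.1 for each degree of freedom.

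The GR-cKO contrast concerns a transcription factor, and 3 promoter windows of members are shown. Those of Krt18 and Muc16 are the ones that held 1 arm of the receptor's recognition sequence. That of Krt8, which held none, is set beside Krt18 because the 2 keratins are partners in the same filaments and their genes lie 23697 bases apart on chromosome 15. The windows run from 250 bases before to 50 after the start site (RefSeq, GRCm38.p6). They are written 5′ to 3′ on the gene's own strand, with each searched motif in capitals, read on either strand.
Krt8 (chr15:102004293-102004592, minus strand): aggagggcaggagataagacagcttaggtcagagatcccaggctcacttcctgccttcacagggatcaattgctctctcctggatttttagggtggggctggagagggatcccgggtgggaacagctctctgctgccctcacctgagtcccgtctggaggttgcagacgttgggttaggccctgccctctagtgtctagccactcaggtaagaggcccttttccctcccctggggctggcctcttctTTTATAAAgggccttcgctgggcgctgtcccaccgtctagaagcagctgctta
Krt18 (chr15:102027966-102028265, plus strand): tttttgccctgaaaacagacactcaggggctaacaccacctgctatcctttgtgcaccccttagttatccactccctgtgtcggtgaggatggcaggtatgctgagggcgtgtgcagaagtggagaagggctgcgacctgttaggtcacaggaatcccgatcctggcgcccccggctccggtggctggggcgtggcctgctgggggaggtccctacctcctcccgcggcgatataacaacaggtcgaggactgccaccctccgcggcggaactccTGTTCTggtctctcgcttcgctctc
Muc16 (chr9:18674554-18674853, minus strand): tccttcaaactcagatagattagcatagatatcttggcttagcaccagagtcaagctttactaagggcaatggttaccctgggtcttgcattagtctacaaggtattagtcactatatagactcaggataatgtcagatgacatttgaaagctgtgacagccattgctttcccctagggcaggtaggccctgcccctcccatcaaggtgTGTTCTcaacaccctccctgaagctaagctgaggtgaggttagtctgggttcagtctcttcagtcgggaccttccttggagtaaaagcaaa

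Windows were at hand for 6 members, Upk3b, Tbx18, Krt8, Krt18, Muc16 and Lrrn4, and were searched for 6 motifs on both strands. The full glucocorticoid response element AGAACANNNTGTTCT was found in 0 of the 6 windows and in 0.00913% of the 32851 windows of all genes. The single arm AGAACA, which is part of the full element, was found in 2 windows, and in 19% of all windows. In Krt18 it began 25 bases after the start site, and in Muc16 it began 41 bases before it. The TEAD motif CATTCC was found in the windows of Upk3b and Lrrn4, and in 14.7% of all windows. The CCAAT box (CCAAT) was found for Tbx18, and in 37.4% of all windows. The TATA box (TATAAA) was found for Krt8, and in 13.6% of all windows. Its overlapping hits on the 2 strands began 3 and 1 bases before the start site. All distances are from the RefSeq start site. The gene bounds given below are from GENCODE M21 and place the starts of Krt8, Krt18 and Muc16 at other bases. The SP1 box GGGCGG was found in 0 of the 6 windows, against 35.7% of all windows. These are matches of letters in a short window and do not show binding. With so few full elements in the windows of all genes, their absence from the 6 windows says nothing about the members.

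None of the 10 members passed the test between GR-cKO and control hearts. Their adjusted p-values were 0.998 or above in edgeR's quasi-likelihood test over 14860 genes, where 1 gene, Nr3c1, or 0.00673% of those tested, was called. At an unadjusted p under 0.05, 0 members stood out, against 4.20% of all genes. The smallest unadjusted p of a member was 0.294, for Upk1b. DESeq2 and limma voom also called 0 members. Groups without overlap, with each GR-cKO library above or each below every control library, occurred for 0 members, against 9.97% of all genes.

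The estimated fold changes were above 0 for 10 of 10 members, against 51.3% of all genes. They ran from a log2 fold change of 0.13 for Wt1 to 0.54 for Upk1b, or from 1.09-fold to 1.45-fold, with a median of 0.21 beside a median of 0.01 over all genes. The members were chosen with earlier results of these hearts known, and this count has no test. It rested in part on 1 heart: without GR-cKO replicate 2, 6 members lay above 0 and 4 below, and the median log2 fold change was 0.06. Without control replicate 1 or control replicate 3, 8 members lay above 0 and 2 below. The median was 0.35 without GR-cKO replicate 3 and 0.36 without control replicate 2.

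**Figure D1:**
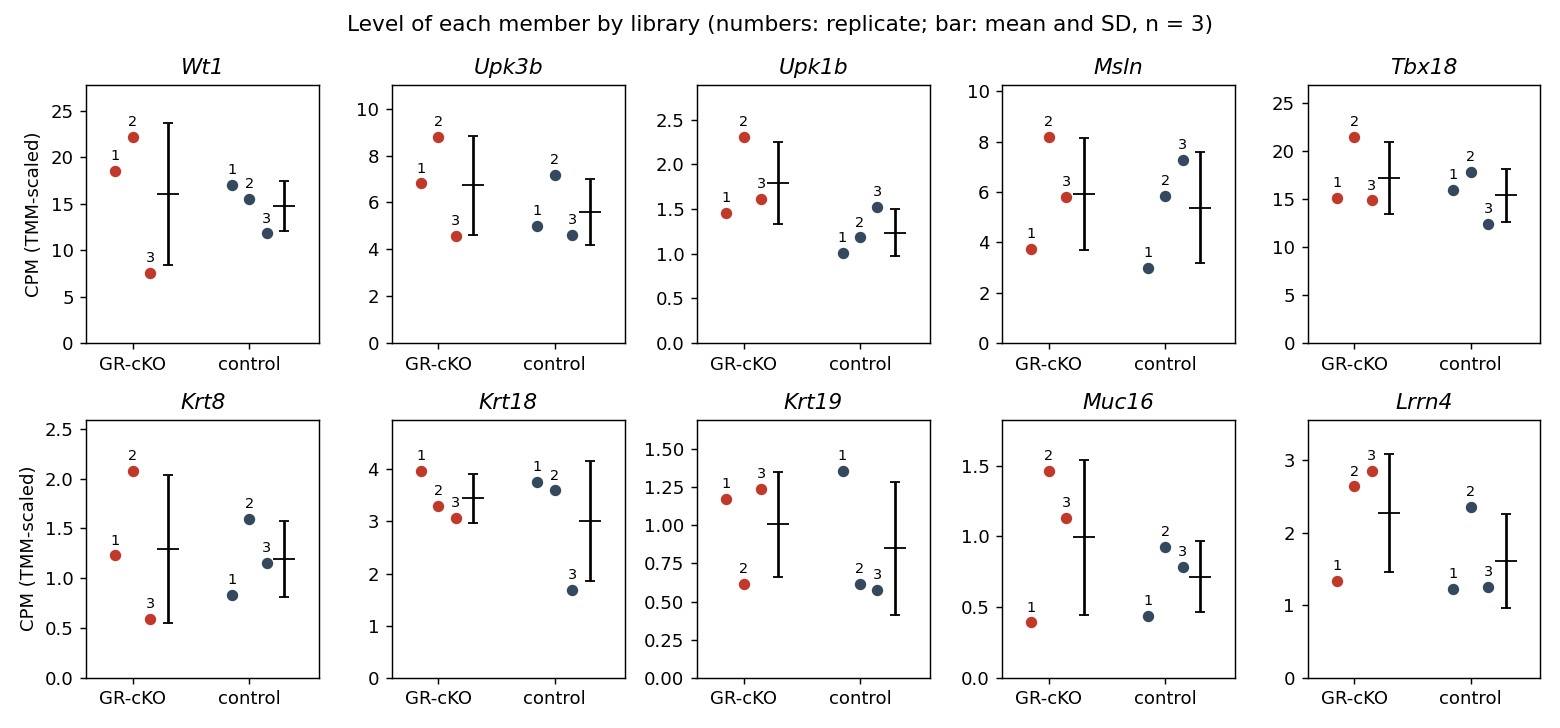
Level of each member in CPM (y axis, linear from 0) in the 3 GR-cKO libraries (red, left) and the 3 control libraries (dark, right), numbered by replicate, with the mean and SD of each group as a bar. The groups overlap for all 10 members, and GR-cKO replicate 2 is the highest library for 7 of them.

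The intervals show what the 6 hearts could resolve. The 95% interval of the fold change excluded a 2-fold difference in either direction for 5 members, Wt1, Upk3b, Msln, Tbx18 and Krt18, against 72.2% of all genes. It excluded a 1.5-fold difference for 1 of 10 members, Tbx18, against 47.8% of all genes. The members had 7 to 472 reads per library, and their median SE was 0.42 on the log2 scale, beside 0.21 over all genes. The highest library of a member held 2.36 times the level of its lowest, as a median over members, beside 1.58 times over all genes without a library at 0.

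**Figure D2:**
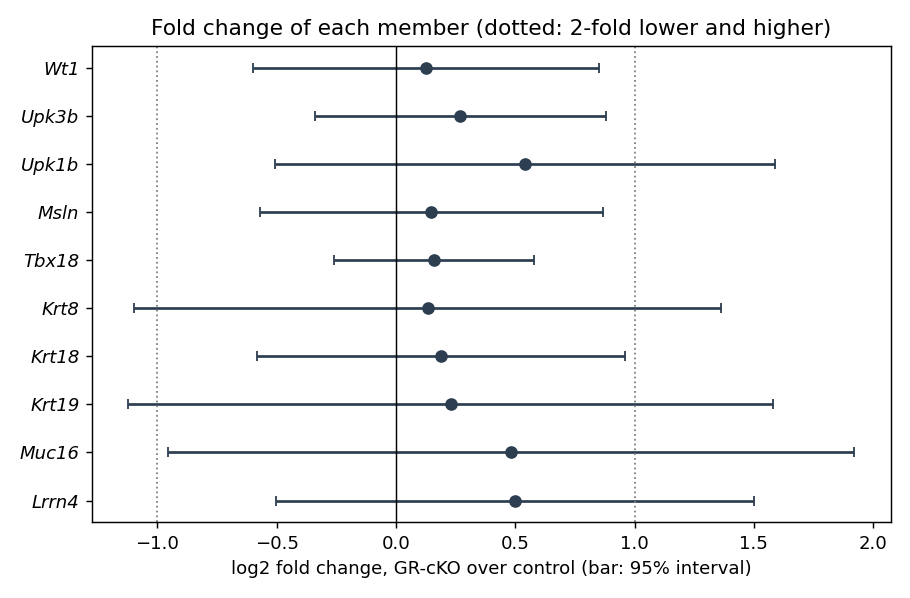
Log2 fold change of each member, GR-cKO over control (x axis), with its 95% interval from edgeR as a bar and dotted lines at 2-fold lower and 2-fold higher. Each interval includes 0, and the widest belong to the members with few reads, Muc16, Krt19 and Krt8.

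A 3′ library reads each transcript near its end, so CPM were set beside each other between genes without a correction for length. Other differences between genes in how reads are counted remain, and the counts of Tbx18 and Krt8 are uncertain for reasons given below. On the CPM scale Tbx18 and Wt1 were the most abundant members, at a mean of 16.3 and 15.4 CPM over the 6 libraries. They lay near the middle of all tested genes, above 54.0% and 52.7% of them. Tbx18 exceeded Wt1 in 3 of 6 libraries, so the pair had no order beyond the spread. Wt1 exceeded Upk3b, the next member (6.17 CPM), in 6 of 6 libraries. Upk3b exceeded Msln (5.65 CPM) in 4 of 6, Msln exceeded Krt18 (3.23 CPM) in 4 of 6, and Krt18 exceeded Lrrn4 (1.95 CPM) in 6 of 6. Below these came Upk1b (1.51 CPM), Krt8 (1.25 CPM), Krt19 (0.929 CPM) and Muc16 (0.855 CPM), neighbours whose order changed between libraries. Muc16, the lowest, lay above 7.78% of the tested genes.

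Wt1 (ENSMUSG00000016458, chromosome 2, 105126529 to 105173616, plus strand) encodes the zinc finger transcription factor of the embryonic epicardium. It had 332, 472 and 140 reads, or 18.5, 22.3 and 7.53 CPM, in GR-cKO replicates 1, 2 and 3. Control replicates 1, 2 and 3 had 389, 302 and 225 reads, or 17.01, 15.5 and 11.8 CPM. The GR-cKO hearts held both the highest and the lowest libraries, and the control hearts lay between them. The fit put GR-cKO over control at a log2 fold change of 0.13 (SE 0.328, 95% interval -0.60 to 0.85, edgeR adjusted p = 0.999). Averaged as log2 CPM, the groups differed by 7.63e-05. The fitted value was -0.19 without GR-cKO replicate 2 and 0.46 without GR-cKO replicate 3. GR-cKO replicate 3, the lowest for Wt1, was also the library with the highest share of Gm42418 reads, whose part in the Wt1 level was not tested.

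Tbx18 (ENSMUSG00000032419, chromosome 9, 87702800 to 87731260, minus strand) encodes a T-box transcription factor of the proepicardium, of the epicardium and of mural cells. It was at 15.1, 21.5 and 14.8 CPM in GR-cKO replicates 1, 2 and 3, against 15.9, 17.8 and 12.4 CPM in control replicates 1, 2 and 3. The groups overlapped, with GR-cKO replicate 2 highest and control replicate 3 lowest. Its log2 fold change of 0.16 had the narrowest interval of the members (SE 0.199, 95% interval -0.26 to 0.58), and it was -0.04 without GR-cKO replicate 2. Tbx18 shares 970 exon bases with D030062O11Rik on the opposite strand, and the strand setting of the counting is not given in the sources used here, so its count is uncertain to that extent. The summed level of the mural cell markers, led by Rgs5 and Abcc9, was lowest in GR-cKO replicate 2, at 869 CPM, where Tbx18 was highest. The part of mural cells in the Tbx18 level was not tested.

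The median log2 fold change was 0.48 over the 5 surface proteins of the mesothelium, beside 0.14 over the 2 transcription factors and 0.19 over the 3 keratins, with no test between them. That 0.48 is the estimate of Muc16, the member of lowest level. As ratios of summed CPM, GR-cKO over control, the surface proteins gave 1.22, the transcription factors 1.10 and the keratins 1.14. Upk3b (ENSMUSG00000042985, chromosome 5, 136038496 to 136046487, plus strand) encodes a uroplakin, a membrane protein first known from the bladder lining that is also a mesothelial marker. It was at 6.81, 8.82 and 4.57 CPM in GR-cKO replicates 1, 2 and 3, against 4.98, 7.19 and 4.62 CPM in control replicates 1, 2 and 3. GR-cKO replicate 2 was highest and GR-cKO replicate 3 lowest, at a log2 fold change of 0.27 (SE 0.290, 95% interval -0.34 to 0.88). It was 0.021 without GR-cKO replicate 2 and 0.49 without control replicate 2.

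Upk1b (ENSMUSG00000049436, chromosome 16, 38773184 to 38800328, minus strand) encodes a tetraspanin uroplakin. It was at 1.45, 2.31 and 1.61 CPM in GR-cKO replicates 1, 2 and 3, against 1.01, 1.18 and 1.52 CPM in control replicates 1, 2 and 3. Control replicate 3 lay above GR-cKO replicate 1, so the groups overlapped by that pair alone. The log2 fold change was 0.54, with a 95% interval of -0.51 to 1.59.

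Msln (ENSMUSG00000063011, chromosome 17, 25748613 to 25754378, minus strand) encodes mesothelin, a protein tethered to the cell surface, and Muc16 (ENSMUSG00000109564, chromosome 9, 18495455 to 18674530, minus strand) encodes the large mucin that binds it. Msln was at 3.74, 8.20 and 5.81 CPM in GR-cKO replicates 1, 2 and 3, against 2.97, 5.86 and 7.29 CPM in control replicates 1, 2 and 3. Muc16 was at 0.391, 1.46 and 1.13 CPM in GR-cKO replicates 1, 2 and 3, against 0.437, 0.925 and 0.787 CPM in control replicates 1, 2 and 3. For both genes GR-cKO replicate 1 and control replicate 1 were the lowest 2 libraries, and GR-cKO replicate 2 was the highest. The log2 fold changes were 0.15 for Msln (95% interval -0.57 to 0.87) and 0.48 for Muc16 (95% interval -0.95 to 1.92). That of Msln was -0.17 without GR-cKO replicate 2 and -0.15 without control replicate 1, and that of Muc16 was 0.090 without GR-cKO replicate 2 and 0.86 without GR-cKO replicate 1.

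Lrrn4 (ENSMUSG00000043110, chromosome 2, 132868305 to 132880891, minus strand) encodes a leucine-rich repeat membrane protein used as a mesothelial marker. It was at 1.34, 2.64 and 2.85 CPM in GR-cKO replicates 1, 2 and 3, against 1.22, 2.36 and 1.26 CPM in control replicates 1, 2 and 3. GR-cKO replicate 1 and control replicates 1 and 3 lay between 1.22 and 1.34 CPM and the others between 2.36 and 2.85 CPM, for a log2 fold change of 0.50 (SE 0.478, 95% interval -0.50 to 1.50). Over the 5 surface proteins the summed level was 17.7 ± 5.08 CPM in GR-cKO hearts and 14.5 ± 3.54 CPM in control hearts (SD, n = 3 each).

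The keratins form the intermediate filaments of simple epithelia, with Krt8 as the type II chain and Krt18 and Krt19 as type I chains. Krt18 (ENSMUSG00000023043, chromosome 15, 102028180 to 102032027, plus strand) had 3.96, 3.30 and 3.07 CPM in GR-cKO replicates 1, 2 and 3, against 3.76, 3.60 and 1.68 CPM in control replicates 1, 2 and 3. It differed little between 5 of the libraries, and control replicate 3 stood below them. Its log2 fold change of 0.19 (95% interval -0.58 to 0.96) was -0.10 without that library. Krt8 (ENSMUSG00000049382, chromosome 15, 101996698 to 102004482, minus strand) had 1.23, 2.07 and 0.592 CPM in GR-cKO replicates 1, 2 and 3, against 0.831, 1.59 and 1.15 CPM in control replicates 1, 2 and 3. The GR-cKO libraries again held the highest and the lowest values, and the log2 fold change of 0.13 (95% interval -1.10 to 1.36) was -0.39 without GR-cKO replicate 2. The annotation lists a Krt8 pseudogene, Krt8-ps, and a long non-coding RNA that overlaps Krt8 by 101 exon bases on the opposite strand. That RNA has no row in the count files, and how reads shared with it or with the pseudogene were counted is not given in the sources used here.

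Krt19 (ENSMUSG00000020911, chromosome 11, 100140810 to 100148665, minus strand) had 1.17, 0.613 and 1.24 CPM in GR-cKO replicates 1, 2 and 3, against 1.36, 0.616 and 0.577 CPM in control replicates 1, 2 and 3. It was low in GR-cKO replicate 2, where 7 other members were highest, and high in control replicate 1. Its log2 fold change was 0.23 (95% interval -1.12 to 1.58), and it was 0.74 without control replicate 1, 0.019 without control replicate 3, 0.048 without control replicate 2 and 0.055 without GR-cKO replicate 3. The keratins summed to 5.75 ± 0.764 CPM in GR-cKO hearts and 5.05 ± 1.43 CPM in control hearts (SD, n = 3 each).

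The members did not vary as 1 block between hearts. GR-cKO replicate 2 was highest for 7 of 10 members and lowest for 0, and lay above a gene's own mean for 9. Control replicate 2 lay above the mean for 8 members, and control replicates 1 and 3 for 3 each. GR-cKO replicates 1 and 3 lay above it for 5 members each. The summed level of the 10 members was 53.8, 73.2 and 43.2 CPM in GR-cKO replicates 1, 2 and 3, against 49.5, 56.7 and 43.1 CPM in control replicates 1, 2 and 3. The groups overlapped in this sum too, with the replicate 2 library highest in each group.

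**Figure D3:**
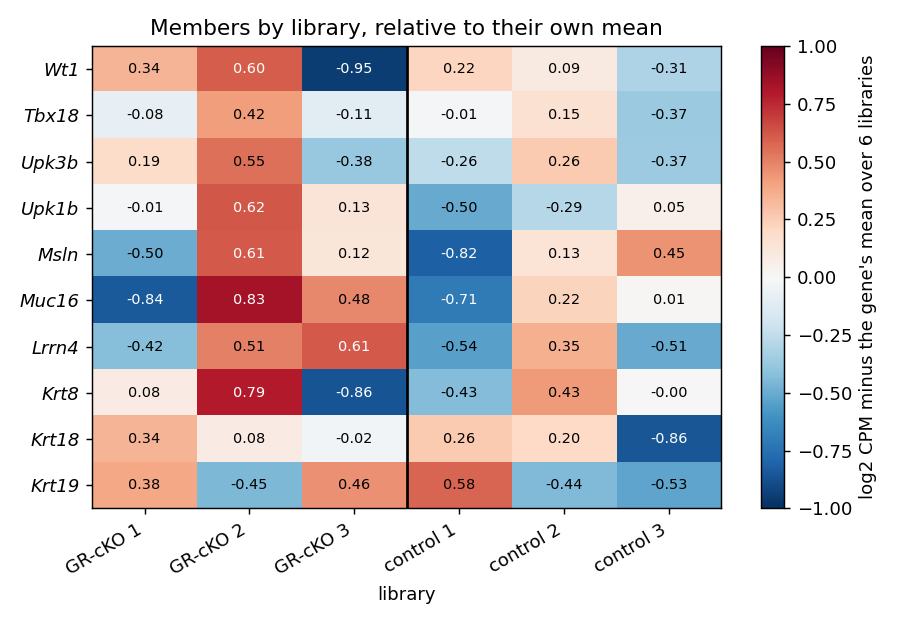
Log2 CPM of each member (rows, by role) in each library (columns, GR-cKO left of the line), as the difference from the gene's mean over the 6 libraries. Red is above and blue below the mean: GR-cKO replicate 2 is above for 9 of 10 members, Wt1 and Krt8 are lowest in GR-cKO replicate 3, and Msln and Muc16 are lowest in the replicate 1 libraries.

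The balance between Wt1 and Msln differed between hearts within each group. The pair was chosen after its values were seen, and a share of reads within a library does not depend on how libraries are scaled. Of the reads of Wt1 and Msln together, Wt1 took 83.2% (95% interval 79.2 to 86.7), 73.1% (69.5 to 76.5) and 56.5% (50.03 to 62.7) in GR-cKO replicates 1, 2 and 3. In control replicates 1, 2 and 3 it took 85.1% (81.5 to 88.3), 72.6% (68.04 to 76.8) and 61.8% (56.6 to 66.8). Within each group the 3 hearts differed by more than these exact binomial intervals, which cover counting error only. For this pair, libraries that carry the same replicate number lay close to each other, and the groups overlapped. Of the other pairs taken, Upk3b with Upk1b and Msln with Muc16 had overlapping intervals within each number. Krt18 with Krt8 did not: Krt18 took 83.8% (72.9 to 91.6) in GR-cKO replicate 3, against 59.3% (45.03 to 72.4) in control replicate 3. Wt1 with Tbx18, given below, also differed for number 3. The labels do not say that a number marks a shared litter or day.

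Against Tbx18 the share of Wt1 was closer between hearts, apart from 1. Wt1 took 55.1%, 50.9% and 33.7% of the reads of the pair in GR-cKO replicates 1, 2 and 3, against 51.7%, 46.5% and 48.8% in control replicates 1, 2 and 3. The interval of GR-cKO replicate 3 (29.1 to 38.4%) lay below the intervals of the other 5 libraries.

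**Figure D4:**
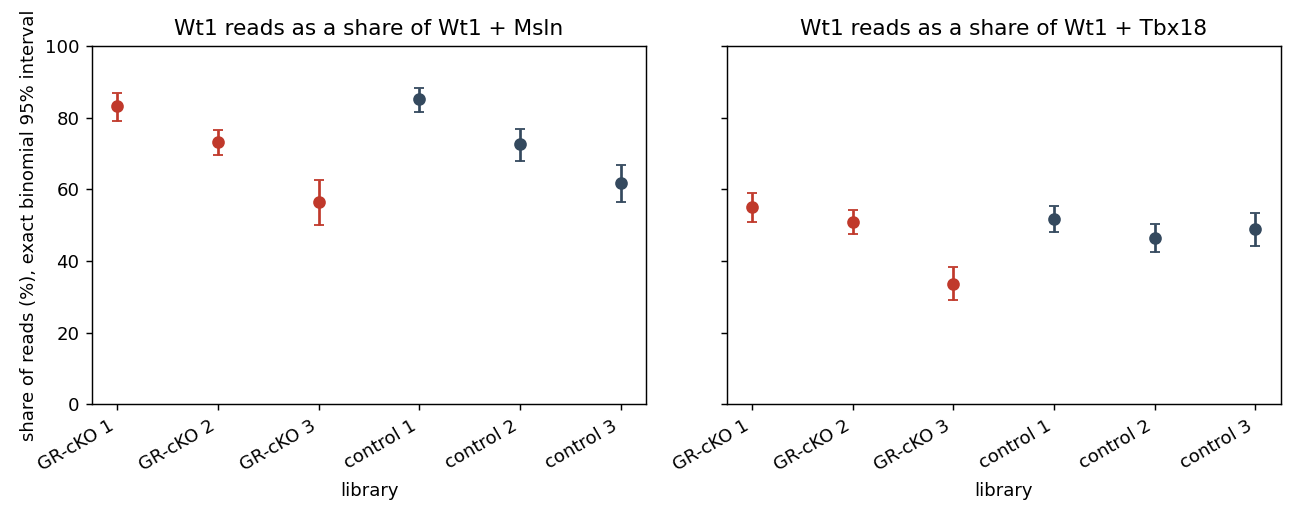
Wt1 reads as a percentage of Wt1 and Msln reads (left) and of Wt1 and Tbx18 reads (right) in each library, GR-cKO in red left of control in dark, with exact binomial 95% intervals. Against Msln the shares run from 56.5 to 85.1%, and against Tbx18 only GR-cKO replicate 3, at 33.7%, stands below the rest.

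Other genes of the same cells gave no call. Of 19 further epicardial and mesothelial genes 16 had enough reads for a test, and 0 passed in either direction; 9 had a log2 fold change above 0 and 7 below, with a median of 0.07. Pdpn, a mucin-type surface protein also made by lymphatic vessels, was at 22.03 ± 5.32 CPM in GR-cKO hearts and 21.5 ± 0.455 CPM in control hearts (SD, n = 3 each). Tcf21, a transcription factor of epicardial cells and cardiac fibroblasts, was at 23.07 ± 0.318 CPM in GR-cKO hearts and 19.6 ± 1.23 CPM in control hearts. Its groups did not overlap, but the edgeR adjusted p was 0.998 (log2 fold change 0.24, 95% interval -0.08 to 0.56).

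Aldh1a2, which makes retinoic acid in the epicardium, was at 13.1 ± 1.65 CPM in GR-cKO hearts and 15.0 ± 3.00 CPM in control hearts. Sema3d, a semaphorin of the epicardium, was at 7.61 ± 1.93 CPM in GR-cKO hearts and 10.4 ± 2.30 CPM in control hearts, with a log2 fold change of -0.45 (95% interval -0.97 to 0.08). Gpm6a, a membrane glycoprotein, was at 8.62 ± 2.01 CPM in GR-cKO hearts and 6.43 ± 1.21 CPM in control hearts, and Nkain4 was at 7.73 ± 2.45 and 7.19 ± 2.13 CPM in GR-cKO and control hearts. These estimates pointed in both directions.

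Rspo1, a secreted enhancer of Wnt signalling named after its values were seen, was the gene of this list with an unadjusted p under 0.05, 1 of 16 tested, beside 4.20% of all genes. It was at 1.90, 2.22 and 1.13 CPM in GR-cKO replicates 1, 2 and 3, against 0.612, 0.719 and 0.996 CPM in control replicates 1, 2 and 3. The groups did not overlap, and the log2 fold change was 1.17 (95% interval 0.0010 to 2.34, edgeR unadjusted p = 0.0498, adjusted p = 0.998). Under the alternatives in edgeR, DESeq2 and limma its unadjusted p ran from 0.0343 to 0.177. The groups of Bnc2 and Efemp1, named in the same way, did not overlap in the other direction. Of the 16 tested genes of this list, 2 had all GR-cKO libraries higher and 2 had all lower, beside 9.97% of all genes in either direction. The level of Bnc2 lay below the cutoff of the filter on low counts, about 0.509 CPM, in each GR-cKO library and above it in each control library. Bnc2 was thus tested through its control libraries alone, and its lack of overlap was fixed by the filter. Bnc2, a zinc finger protein, was at 0.397 ± 0.0246 CPM in GR-cKO hearts and 0.693 ± 0.207 CPM in control hearts, and Efemp1, a matrix protein, was at 1.04 ± 0.561 and 2.32 ± 0.947 CPM in GR-cKO and control hearts. Their adjusted p-values were 0.998 as well. The edgeR unadjusted p of Efemp1 was 0.0510, and it ran from 0.0314 to 0.255 under the alternatives in edgeR, DESeq2 and limma.

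Relatives of the members by gene family were mostly too low to test. Of 13 such genes 5 were tested, 0 passed and 0 had an unadjusted p under 0.05, and Upk2 and Upk3a, uroplakins of the bladder lining, had 0 reads in every library. Upk1a, the tetraspanin related to Upk1b, was at 1.75 ± 0.735 CPM in GR-cKO hearts and 1.31 ± 0.115 CPM in control hearts. Tbx20, a T-box factor of heart muscle and endocardium, was far more abundant than Tbx18, at 142.5 ± 9.94 CPM in GR-cKO hearts and 157 ± 21.8 CPM in control hearts. Lrrn2 was at 5.75 ± 0.930 CPM in GR-cKO hearts and 6.05 ± 1.29 CPM in control hearts.

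The epicardial transition to mesenchyme runs through TGF-beta and PDGF signals and the Snail and Zeb factors. All 18 genes of this list were tested and 0 passed, with 8 estimates above 0, 10 below and a median log2 fold change of -0.03. Pdgfrb, a receptor of mural cells and of epicardial cells in transition, was at 86.0 ± 17.5 CPM in GR-cKO hearts and 87.4 ± 10.5 CPM in control hearts. Zeb1 was at 64.4 ± 7.03 CPM in GR-cKO hearts and 57.4 ± 4.36 CPM in control hearts, and the ligand Tgfb2 was at 58.03 ± 4.33 and 50.7 ± 3.88 CPM in GR-cKO and control hearts. Tgfb1, named after its values were seen, had the one unadjusted p under 0.05 of the list, 1 of 18, beside 4.20% of all genes. It was at 10.4 ± 2.36 CPM in GR-cKO hearts and 7.18 ± 1.27 CPM in control hearts, a log2 fold change of 0.53 (95% interval 0.02 to 1.04, edgeR unadjusted p = 0.0424, adjusted p = 0.998). Under the alternatives in edgeR, DESeq2 and limma its unadjusted p ran from 0.0139 to 0.191.

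Retinoic acid is made by the epicardium and acts on it and on the muscle. Of 15 genes of its synthesis and response 11 were tested, 0 passed and 0 had an unadjusted p under 0.05, with 8 estimates above 0 and 3 below. Rxra, the partner of the retinoic acid receptors, was at 42.2 ± 5.39 CPM in GR-cKO hearts and 37.6 ± 2.15 CPM in control hearts, and Dhrs3, an enzyme that limits retinal, was at 27.7 ± 2.94 and 29.07 ± 1.21 CPM in GR-cKO and control hearts.

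Keratins and surface mucins are also made by epithelia of neighbouring organs. Of 10 pan-epithelial genes 9 had a read, and they summed to 3.23 to 5.64 CPM in GR-cKO libraries and 2.99 to 5.07 CPM in control libraries, mostly from Grhl2 and Cldn3. The keratin members summed to 4.89 to 6.37 CPM in GR-cKO libraries and 3.41 to 5.95 CPM in control libraries, so the sums were of similar size. Over the 6 libraries Grhl2 averaged 1.99 CPM and Napsa 2.07 CPM, above the 1.25 CPM of Krt8, and Cldn3 averaged 0.914 CPM, close to Krt19. Epcam reached 0.283 CPM in GR-cKO and 0.205 CPM in control libraries, and Esrp1 had 0 reads throughout. Of 9 lung genes 6 had a read, and they summed to 2.23 to 6.67 CPM in GR-cKO libraries and 1.44 to 2.62 CPM in control libraries, mostly from Napsa. The surfactant gene Sftpc had 7, 3 and 43 reads, or 0.391, 0.141 and 2.31 CPM, in GR-cKO replicates 1, 2 and 3, against 0 in each of the 3 control libraries. Most of these reads lay in GR-cKO replicate 3. The level in GR-cKO replicate 2 was below what a count of 0 allows in control replicates 2 and 3, 0.154 and 0.157 CPM. It is thus not shown to lie above the controls. GR-cKO replicate 3 was the highest library for 1 member, Lrrn4, and the lowest for 3, Wt1, Upk3b and Krt8. Sftpc did not pass the filter on low counts. When no filter was set, edgeR called it higher in GR-cKO hearts, with most of its reads from that 1 heart. Nkx2-1, Sftpd and Lamp3 had 0 reads in every library. Of 10 genes of thymus epithelium and thymocytes 7 had a read, led by Trp63 and Cd3e, and they summed to 2.58 to 4.24 CPM in GR-cKO libraries and 1.31 to 5.96 CPM in control libraries. Foxn1, Krt5 and Ptcra had 0 reads in every library. The part of these epithelia in the member levels was not tested.

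Marker genes of fat varied between hearts, partly alongside the members. Of 6 adipose genes 5 had a read and Lep had none. Cidea, which heart muscle also expresses, made up most of their sum of 129 to 175 CPM in GR-cKO libraries and 117 to 286 CPM in control libraries. Adipoq, Plin1, Cidec and Ucp1, a subset taken after the values were seen, summed to 0.0558, 28.3 and 7.21 CPM in GR-cKO replicates 1, 2 and 3, against 11.5, 124 and 0.892 CPM in control replicates 1, 2 and 3. Within each group the replicate 2 library was highest in the summed members and in these 4 fat genes. Between groups the order differed, as control replicate 2 was highest in the fat genes and GR-cKO replicate 2 in the members. GR-cKO replicate 1, the lowest in the fat genes, had a member sum of 53.8 CPM, against 43.2 CPM in GR-cKO replicate 3. Cidea was at 129, 128 and 167 CPM in GR-cKO replicates 1, 2 and 3, against 121, 163 and 117 CPM in control replicates 1, 2 and 3. The part of fat in the member levels was not tested.

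The cell types that the epicardium gives rise to and the muscle it covers were read at far higher levels. All 9 mural genes had reads, led by Rgs5 and Abcc9, and summed to 869 to 1143 CPM in GR-cKO libraries and 981 to 1025 CPM in control libraries. All 8 fibroblast genes had reads, led by Col1a1 and Col1a2, and summed to 3207 to 3391 CPM in GR-cKO libraries and 3271 to 4068 CPM in control libraries. The 6 cardiomyocyte genes, with Myh6 and Myl2 the most abundant, summed to 30929 to 40931 CPM in GR-cKO libraries and 32373 to 32902 CPM in control libraries. No gene of these 3 lists passed the edgeR test, and 0 had an unadjusted p under 0.05. None of the genes of any list named here was called by DESeq2 or limma voom, which were run on the genes that passed the filter.

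The genes whose profile over the 6 libraries lay closest to the members' mean profile were Mea1, Mettl17, Zdhhc20, Iffo2 and Gm42892. Likeness was the root mean square distance of centred log2 CPM, and for these 5 it was 0.0529 to 0.0710. Mea1, the closest, was at 13.1, 19.2 and 12.05 CPM in GR-cKO replicates 1, 2 and 3, against 11.2, 14.3 and 11.6 CPM in control replicates 1, 2 and 3. Like the members' sum, it was highest in GR-cKO replicate 2 and overlapped between the groups. This likeness follows from its choice as the nearest of 10227 genes compared.

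**Figure D5:**
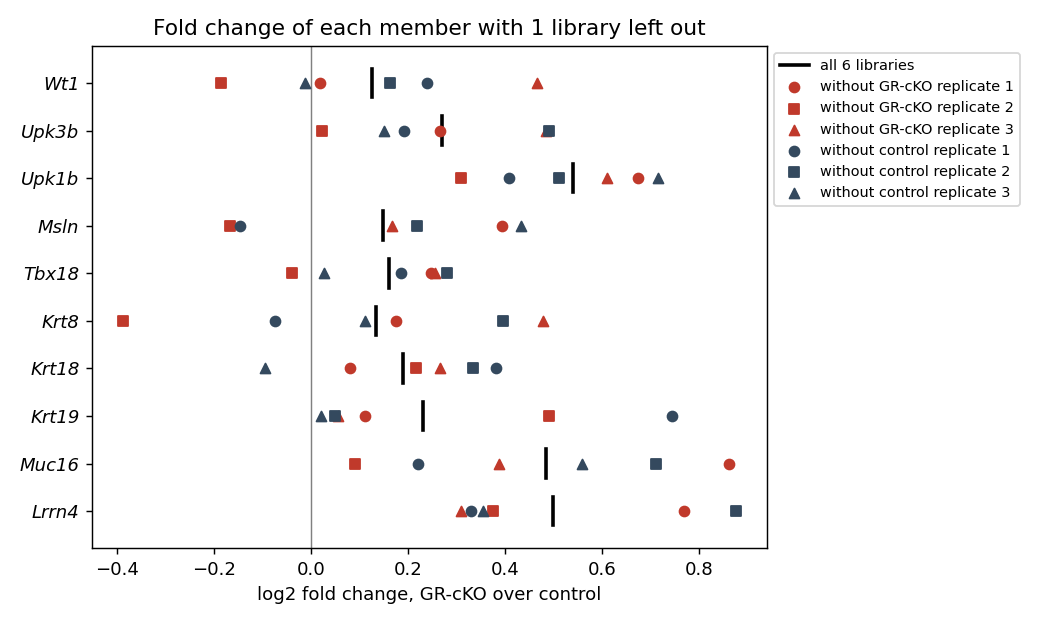
Log2 fold change of each member, GR-cKO over control (x axis), with all 6 libraries (black line) and with each library left out in turn (points; red for a GR-cKO library, dark for a control library). Without GR-cKO replicate 2, Wt1, Msln, Tbx18 and Krt8 lie below 0, and the other members stay above it.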

How the data were processed

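Whole-heart RNA (100 ng a library) was sequenced from the 3′ end with the QuantSeq FWD kit, per the labels' protocols. The authors deposited raw read counts per Ensembl gene, 1 library per file. The submitters' processing notes list STAR 2.5.4a, featureCounts 1.6.2, cutadapt 1.16 and DESeq2 1.18.1, and the GRCm38 build. Strand setting and annotation release: not given in the sources used here.

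Symbols came from GENCODE M21, which matched 52403 of 52550 identifiers. The 99 spike-in rows entered neither library sizes nor tests. In R 4.3.3 with edgeR 4.0.16 (and limma 3.58.1), filterByExpr kept genes of about 0.509 CPM in at least 3 libraries, and counts were scaled by the trimmed mean of M-values and tested with the robust quasi-likelihood F test, with Benjamini-Hochberg adjustment over all 14860 genes and a threshold of 0.05. All 10 members passed the filter, 9 of them in each of the 3 control libraries. Log2 CPM used a prior count of 2. The fit was tested on simulated counts. P-values measure the spread between hearts that the labels call biological replicates.

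The members and gene lists were chosen with earlier results of these data known. Genes are named by rule: the members, Nr3c1, the most abundant genes of each list, and the 5 genes of at least 5 CPM nearest the members' mean profile. A gene that this rule takes is not reported here. Outside the rule, defining markers of other cell types are named for their low or missing reads, and further genes where the text says that they were chosen after their values were seen. The alternatives were other scalings (DESeq2 1.42.0 size factors, library totals, spike-ins), no filter, DESeq2, limma voom, the replicate number as a block, and each library left out.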

Additional observations from a re-analysis of the deposited data

How the results depend on the processing

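None of the members passed under any alternative tried, and the smallest adjusted p of a member was 0.848, without the filter on low counts. The count of genes called, 1 with the settings of the report, was 2 with library totals alone, 10 without the filter and 4 with DESeq2, and ran from 1 to 2 with 1 library left out, with 2 without GR-cKO replicate 2 or GR-cKO replicate 3. Nr3c1 was among them in each setting. Trabd2b joined it with library totals and without GR-cKO replicate 3, Gm28438 without GR-cKO replicate 2, and Trabd2b, Art1 and 9330158H04Rik with DESeq2. Without the filter the calls were 9330158H04Rik, Jund, Sftpc and Tmem267, higher in GR-cKO hearts, and Art1, Ckmt2, Gm15543, Igfbp7, Nr3c1 and Trabd2b, lower there. Apart from Nr3c1 and Sftpc these genes are named after their values were seen. Wt1 without GR-cKO replicate 3 (edgeR unadjusted p = 0.0294, adjusted p = 0.953) was the sole case of a member with an unadjusted p under 0.05. The members' median log2 fold change ran from 0.17 with library totals to 0.27 with spike-in scaling over the scalings, filters and tools, with 10 of 10 above 0 in each, and from 0.06 to 0.36 with 1 library left out. The median of all genes lay between -0.03 and 0.05 under these scalings.

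With 1 library left out, the log2 fold change ran from -0.19 to 0.46 for Wt1, -0.17 to 0.43 for Msln, -0.040 to 0.28 for Tbx18, -0.39 to 0.48 for Krt8 and -0.10 to 0.38 for Krt18. The other members stayed above 0, from 0.021 to 0.49 for Upk3b, 0.31 to 0.71 for Upk1b, 0.090 to 0.86 for Muc16, 0.31 to 0.88 for Lrrn4 and 0.019 to 0.74 for Krt19. Among the other named genes, Pdpn was at -0.0049 with library totals, and with spike-in scaling Lrrn2 was at 0.011 and Pdgfrb at 0.0019.
With 1 library left out, Pdpn ran from -0.084 to 0.23, Nkain4 from -0.18 to 0.28, Pdgfrb from -0.16 to 0.12 and Lrrn2 from -0.24 to 0.049. An unadjusted p under 0.05 was lost by Rspo1 with library totals, spike-in scaling, no filter, limma voom, the replicate block and 4 of the libraries left out, and by Tgfb1 with library totals, spike-in scaling, limma voom and 4 of the libraries left out. Efemp1 gained one with library totals, no filter, DESeq2, limma voom, the replicate block and 4 of the libraries left out.

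The replicate numbers were tried as a pairing. Deviations of same-numbered libraries from their group means correlated, over genes, by 0.06, 0.06 and 0.01 for numbers 1, 2 and 3. Those of libraries with unlike numbers correlated by -0.09 to 0.03. With 3 libraries in a group, these values cannot decide whether the numbers mark pairs. With the replicate block 1 gene was called, the members' median log2 fold change was 0.25 and 0 members passed.

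For 5 members of few reads, Upk1b, Krt8, Krt19, Muc16 and Lrrn4, the interval included a 2-fold difference.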
